A study of Mus musculus with 40 samples.

Results

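The proteins that hold a glutamatergic synapse together were followed here through their mRNAs in the brains of mice colonized with human gut microbiota. The group held 37 genes, chosen by what their products do: scaffolds of the postsynaptic density, the kinase and phosphatases docked there, auxiliary subunits of the AMPA receptor, and the adhesion proteins that join the membranes on both sides of the cleft. All 37 were found among the 47643 gene rows of each count table, and all 37 had enough counts to be tested in every comparison. Membership rested on gene function, and the group was drawn up with earlier results of these data known.

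Female wild-type Swiss Webster mice, 6 to 8 weeks old and raised germ free, received stool from 10 donors with refractory epilepsy, collected before (pre-KD) or after (post-KD) the donor had followed a clinical ketogenic diet. All recipients ate the same control chow, so no mouse ate a ketogenic diet, and tissue was taken 4 days after colonization. Hippocampus and frontal cortex were profiled by RNA sequencing, with 1 library for each region of each of 20 cohorts. This gave 10 libraries in each of 4 groups, named hippocampus pre-KD, hippocampus post-KD, frontal cortex pre-KD and frontal cortex post-KD. Each library stood for a pool of 6 mice that shared 1 donor sample. The spread between libraries was therefore a spread between cohorts, in which donors, mouse cohorts and RNA preparations cannot be told apart. Germ-free mice given no stool were not analysed here.

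At an excitatory synapse, the postsynaptic density is a protein mesh beneath the membrane that faces the axon terminal. PSD-95 and its relatives bind receptors at the membrane, the SAPAP proteins bind PSD-95, and Shank and Homer proteins form the deeper layer that reaches metabotropic glutamate receptors and the actin skeleton. Calcium entering through NMDA receptors activates CaMKII, which drives potentiation, and calcineurin, a phosphatase that opposes it. Neurexins on the axon and neuroligins on the dendrite bind each other across the cleft. Variants in many of these genes are known in epilepsy, autism and intellectual disability.

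Total counts ran from 1140756 to 2095352 per library, and values below are counts per 1000000 counts of a library scaled by TMM (trimmed mean of M values), written CPM. The labelled regions were checked against marker genes. Summed hippocampal neuron markers had a median of 903 CPM in hippocampus and 491 in frontal cortex. Summed striatal markers were at a median of 90.6 CPM in hippocampus and 564 in frontal cortex, and Ttr, a choroid plexus transcript, at 1434 and 101 CPM. The cortical marker Fezf2 went against its list, with a median of 62.9 CPM in hippocampus and 32.1 in frontal cortex, and the medians of Rprm, another of that list, were 45.5 and 39.7 CPM. By diet, 0 genes of any marker list passed an adjusted p of 0.05 in either region (edgeR), and the lists with genes under an unadjusted p of 0.05 were the hippocampal neuron, striatal and oligodendrocyte lists in hippocampus, with 1 gene each, and the microglia list with 1 and the blood list with 2 genes in frontal cortex. Some libraries stood apart from their region. The standard deviation of log2 deviations from the region mean, over genes averaging at least 20 CPM, was 1.42 and 1.25 in the hippocampal pre-KD libraries of donors 5 and 7, against a median of 0.829 over hippocampal libraries. The frontal cortical pre-KD library of donor 6 had the most hippocampal marker signal of its region, 760 CPM, and that of donor 1 the widest scatter, 1.03 against a median of 0.566 over frontal cortical libraries. Results were therefore also computed without these libraries.

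The first question was whether the members differed between recipients of post-KD and pre-KD microbiota in the hippocampus. Of 37 members, 0 passed an unadjusted p of 0.05 and 0 passed an adjusted p of 0.05 (edgeR's quasi-likelihood test, Benjamini-Hochberg adjustment over 17529 genes). Of all genes tested, 10.1% had an unadjusted p under 0.05 and 0.0057%, a single gene, an adjusted p under 0.05. Among the 6703 genes averaging at least 20 CPM, as 35 of the members do, the unadjusted share was 2.83%. DESeq2 put 1 member, Shank3, under an unadjusted p of 0.05, against 3.42% of all genes, and none under an adjusted one. Fold changes were 17 higher and 20 lower in post-KD recipients with a median log2 fold change of -0.03, against a median of -0.01 over all genes. Because the tissue was bulk, fewer cells of a type and less mRNA per cell cannot be told apart in any of these values.

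Shank proteins are master scaffolds that link the SAPAP layer to Homer and actin, and Shank2 and Shank3 had opposite signs in the hippocampus. Shank2 lies at chr7:144001928-144424494 and Shank3 at chr15:89499623-89560261, both on the plus strand of GRCm38. Shank3 ran from 5.35 CPM through a median of 18.8 to 51.7 in pre-KD libraries and from 10.3 through 34.6 to 51.4 in post-KD libraries. Shank2 ran from 31.3 through 41.9 to 71.3 CPM in pre-KD libraries and from 18.3 through 29.4 to 55.6 in post-KD libraries. For both genes the groups overlapped, since the pre-KD library of donor 3 had the highest Shank3 value of all 20 hippocampal libraries. Shank3 was higher after the diet for 8 of 10 donors (log2 fold change 0.72, SE 0.46, edgeR p = 0.119, adjusted p = 0.781). Shank2 was lower for 8 of 10 donors (log2 fold change -0.53, SE 0.36, edgeR p = 0.151, adjusted p = 0.850).

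The choice of test decided whether these Shank differences passed an unadjusted p of 0.05, and for Shank3 the choice of donors did too. Leaving out both libraries of donor 3 put Shank3 under that threshold by edgeR. An exact permutation test on log2(CPM + 1) over all ways to divide the libraries into groups of 10, two-sided, gave p = 0.0278 for Shank3 and p = 0.0212 for Shank2. With donors paired, the exact sign-flip permutation test gave p = 0.0527 for Shank3 and p = 0.0117 for Shank2. Only members picked by their edgeR p in these same data were permuted, so these tests have no adjusted p and no share over all genes. DESeq2 with the donor as a block gave p = 0.0412 and p = 0.0376, with adjusted p = 0.907 and 0.895. Over all alternatives the adjusted p ran from 0.513 to 1 for Shank3 and from 0.725 to 1 for Shank2. Shank1, the third paralog, was at 109 to 718 CPM in pre-KD and 248 to 659 CPM in post-KD libraries, with a log2 fold change of 0.08 (SE 0.16).

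CaMKII is the calcium-dependent kinase of the density, built from alpha, beta, delta and gamma subunits encoded by Camk2a, Camk2b, Camk2d and Camk2g. In the hippocampus, all 4 had a negative log2 fold change, from -0.15 for Camk2a to -0.07 for Camk2d, and none passed the test. Camk2a ran from 2214 through a median of 3170 to 4736 CPM in pre-KD libraries and from 2214 through 3078 to 3866 in post-KD libraries. The post-KD range lay inside the pre-KD range, and the gene was lower for 6 of 10 donors (SE 0.09, edgeR p = 0.108, adjusted p = 0.746). This value depended on which libraries were kept. Without the pre-KD libraries of donors 5 and 7, the Camk2a log2 fold change was -0.25 (SE 0.09, edgeR p = 0.00602, adjusted p = 0.136). Without both libraries of donor 8 it was -0.04 (p = 0.691 by edgeR). Leaving out both libraries of donor 5, or both of donor 10, put the edgeR p of Camk2a under 0.05. Over all alternatives the adjusted p ran from 0.136 to 1.

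TARPs are small membrane proteins that carry AMPA receptors to the synapse and slow their closing, and Cacng3 encodes the subunit called gamma-3. Hippocampal Cacng3 ran from 3.82 through 32.4 to 96.1 CPM in pre-KD libraries and from 10.7 through 54.2 to 86.9 in post-KD libraries. It was higher for 8 of 10 donors, with overlapping groups (log2 fold change 0.55, SE 0.37, edgeR p = 0.136, adjusted p = 0.822). Exact permutation tests gave p = 0.124 over libraries and p = 0.150 by sign flips over donors. Leaving out 1 donor at a time, the value ran from 0.37 without donor 1 (edgeR p = 0.354) to 0.85. Leaving out both libraries of donor 7, whose pre-KD library was the highest of its group, brought it to 0.85 (p = 0.0298, adjusted p = 0.380). Leaving out only the pre-KD libraries of donors 5 and 7 brought it to 0.78 (p = 0.0369, adjusted p = 0.445, both by edgeR), and over all alternatives the adjusted p ran from 0.380 to 1. Cacng2, encoding stargazin, had a hippocampal log2 fold change of -0.04 (SE 0.21).

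Dlg2, encoding the PSD-95 relative PSD-93, and Ppp3cb, encoding a catalytic subunit of calcineurin, completed the 6 members with the smallest hippocampal p. Dlg2 ran from 69.8 through 172 to 262 CPM before and from 161 through 185 to 342 after (log2 fold change 0.26, SE 0.18, edgeR p = 0.161, adjusted p = 0.870), higher for 7 of 10 donors. Ppp3cb ran from 105 through 153 to 365 CPM before and from 104 through 141 to 219 after (log2 fold change -0.26, SE 0.19, edgeR p = 0.172, adjusted p = 0.890), lower for 5 of 10 donors. The groups overlapped for both genes, and single donors moved both values. Ppp3cb was at -0.08 without donor 5, whose pre-KD library held the 365 CPM, and Dlg2 at 0.15 without donor 7. Ppp3ca, the other calcineurin catalytic gene among the members, was at 2305 to 3050 CPM before and 2225 to 3521 CPM after, a log2 fold change of 0.10 (SE 0.08). Dlg4, encoding PSD-95 itself, differed little relative to its error (log2 fold change 0.07, SE 0.13).

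**Figure D1:**
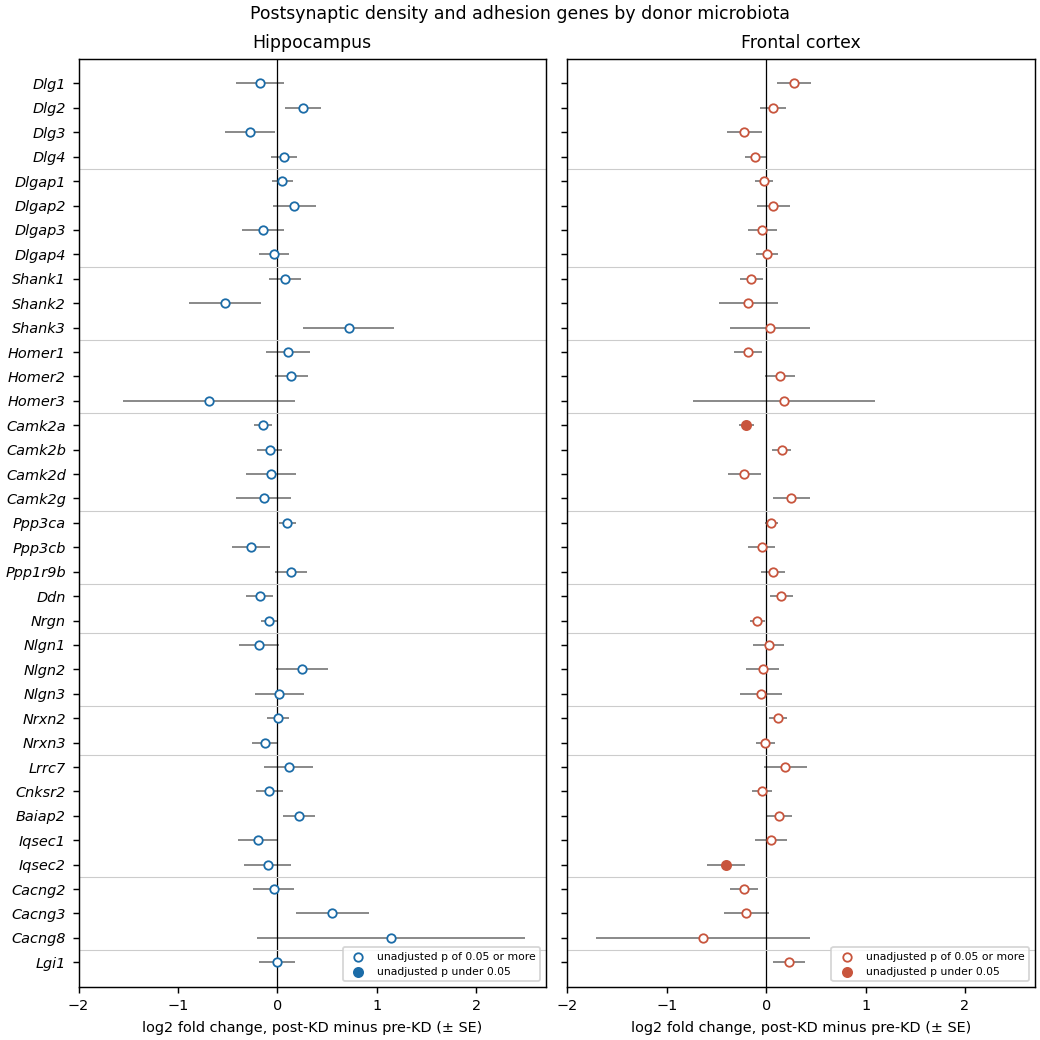
Log2 fold change (x axis, post-KD minus pre-KD, bars ± SE from edgeR) of each of the 37 members (y axis, grouped by role) in hippocampus and in frontal cortex. Filled points mark an unadjusted p under 0.05: there are 0 in hippocampus and 2 in frontal cortex, Camk2a and Iqsec2, both below 0.

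In the frontal cortex, the same comparison put 2 of 37 members under an unadjusted p of 0.05 and 0 under an adjusted p of 0.05 (edgeR, 17873 genes). Of all genes, 9.68% passed the unadjusted threshold, 4.68% of all genes by being lower in post-KD recipients, and 0.0056% the adjusted one, and of genes averaging at least 20 CPM 5.27% passed the unadjusted one. The members' share was thus near or under the share of all genes. On simulated counts, unchanged genes averaging under 20 CPM fell under the unadjusted threshold of the diet fits more often than its nominal rate, and those at or above 20 CPM, as both of these members were, did not. Adjusted calls of unchanged genes there were also more frequent than the nominal rate, most of them under 20 CPM. The simulated counts were drawn for each gene on its own and held no libraries that stood apart. They therefore cannot show how such libraries affect the p-values of real genes. Members were 18 higher and 19 lower, with a median log2 fold change of -0.01 against 0.01 over all genes. DESeq2 also put 2 members under the unadjusted threshold, against 4.62% of all genes, and 0 under the adjusted one.

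The 2 members were Camk2a and Iqsec2, both lower in post-KD recipients. Camk2a ran from 2776 through a median of 3167 to 4503 CPM in pre-KD libraries and from 2417 through 2929 to 3287 in post-KD libraries. The groups overlapped, and the 3 highest libraries were all pre-KD, those of donors 6, 8 and 9. Camk2a was lower for 7 of 10 donors (log2 fold change -0.20, SE 0.07, edgeR p = 0.00818, adjusted p = 0.152). The exact permutation test over libraries gave p = 0.0295, and the exact sign-flip permutation test over donors p = 0.0977. Without both libraries of donor 8, the log2 fold change was -0.14 (edgeR p = 0.0574).

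Iqsec2 encodes an exchange factor for Arf6 that binds PSD-95 and regulates AMPA receptor traffic, and its human counterpart is an X-linked gene of epilepsy with intellectual disability. It ran from 46.0 through 107 to 149 CPM in pre-KD libraries and from 33.0 through 81.0 to 134 in post-KD libraries. The ranges overlapped over most of their length, and the gene was lower for 7 of 10 donors (log2 fold change -0.40, SE 0.19, edgeR p = 0.0356, adjusted p = 0.435). The exact permutation test over libraries gave p = 0.0778, above the threshold, and the exact sign-flip permutation test over donors p = 0.102. Without the pre-KD library of donor 6, edgeR gave p = 0.0613. Leaving out both libraries of donor 1, 2, 3, 6, 7 or 8, each in turn, also put its edgeR p above 0.05. Without the widely scattered pre-KD library of donor 1 alone, edgeR gave p = 0.0344.

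Among the CaMKII subunits, signs were mixed in frontal cortex. Camk2b, encoding the subunit that binds actin, ran from 404 through 534 to 682 CPM before and from 491 through 602 to 665 after, higher for 8 of 10 donors with overlapping groups (log2 fold change 0.16, SE 0.10, edgeR p = 0.117, adjusted p = 0.749), and at 0.09 without donor 2. Camk2d and Camk2g had log2 fold changes of -0.22 (SE 0.17) and 0.25 (SE 0.19). As a share of the counts of all 4 subunit genes, Camk2a was at a median of 82.6% before, from 79.5% to 85.3%, and of 78.9% after, from 74.1% to 82.2%. Camk2b was at 12.8% before, from 10.96% to 15.5%, and at 16.4% after, from 12.7% to 19.1%. These shares overlapped between groups and are given as a description with no test.

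Dlg1, Cacng2 and Lgi1 had the next smallest p in frontal cortex. Dlg1, encoding the PSD-95 relative SAP97, ran from 70.5 through 114 to 138 CPM before and from 71.9 through 130 to 203 after (log2 fold change 0.28, SE 0.17, edgeR p = 0.107, adjusted p = 0.728). Cacng2 ran from 114 through 170 to 240 CPM before and from 124 through 144 to 204 after (log2 fold change -0.22, SE 0.14, edgeR p = 0.122, adjusted p = 0.763). Lgi1, a secreted ligand that bridges the synapse and whose human counterpart is a gene of familial lateral temporal lobe epilepsy, ran from 98.4 through 114 to 186 CPM before and from 76.1 through 140 to 233 after (log2 fold change 0.23, SE 0.16, edgeR p = 0.163, adjusted p = 0.839). These 3 members did not pass the test, and in each the groups overlapped. Single donors moved each value: the log2 fold change of Lgi1 was 0.10 and that of Cacng2 -0.14 without donor 2, and that of Dlg1 0.13 without donor 3. Dlg1 had an edgeR p under 0.05 without donor 2 or donor 10, and Cacng2 without donor 4.

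**Figure D2:**
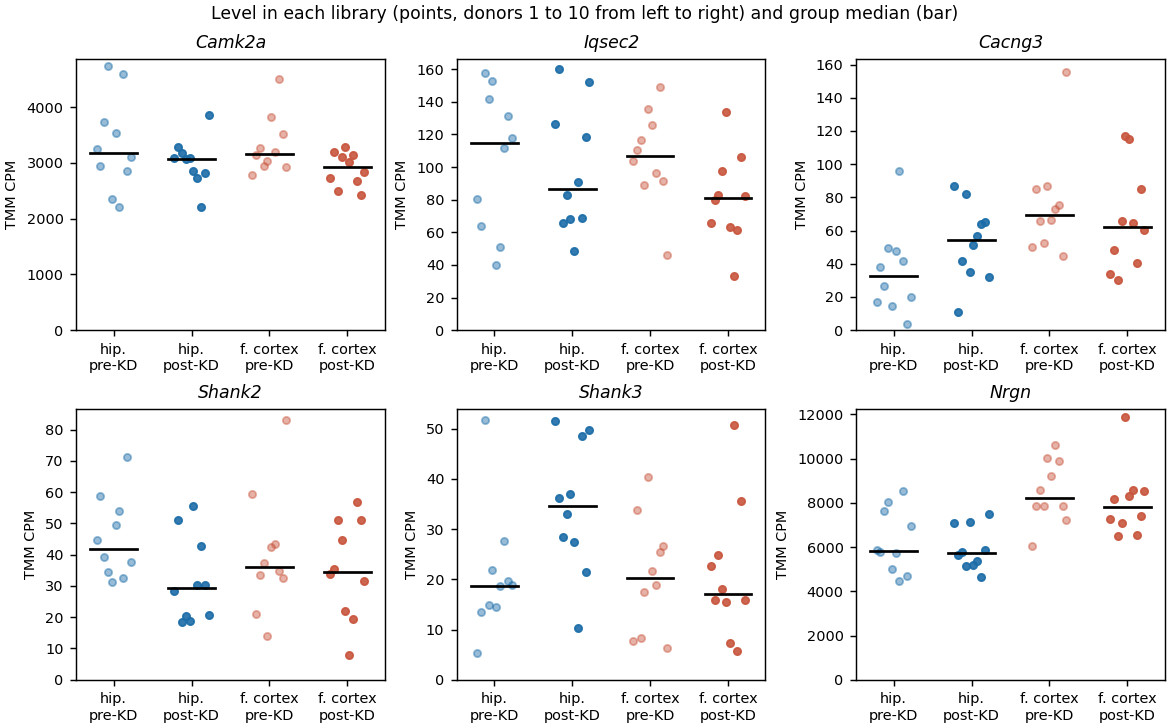
TMM-scaled CPM (y axis, from 0) of 6 members in each of the 40 libraries, by group (x axis, hip. for hippocampus and f. cortex for frontal cortex). Points are libraries of donors 1 to 10 from left to right, and bars are group medians. The pre-KD and post-KD libraries overlap within each region for all 6 members, and Nrgn is higher in frontal cortex.

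Whether the diet difference itself differed between regions was tested by an interaction term with the cohort as a block. Of 37 members, 1 passed an unadjusted p of 0.05, against 2.22% of 19422 genes in either direction, 0.865% in its own direction, and 3.36% of genes averaging at least 20 CPM. By an adjusted p, 0 passed 0.05, against 0.0154%. The member was Cacng3, whose log2 fold change was 0.55 in hippocampus and -0.20 in frontal cortex. The difference was 0.98 (SE 0.44, edgeR p = 0.0258, adjusted p = 1). Both regions of a cohort enter this fit together, so it need not equal the difference of the separate values. Without the cohort block, edgeR gave p = 0.0816. Camk2a, which did not pass the test in hippocampus, had an interaction of 0.08 (SE 0.08, edgeR p = 0.339).

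A larger set of differences lay between the brain regions. With each cohort's hippocampus set against its own frontal cortex, 10 of 37 members passed an adjusted p of 0.05, 4 higher in hippocampus and 6 higher in frontal cortex (edgeR with the cohort as a block). Over all 19422 genes tested, 2.85% passed, and over those averaging at least 20 CPM 6.87%. Of all genes, 0.87% passed higher in hippocampus and 1.98% lower. By an unadjusted p of 0.05, 15 of 37 members passed, against 10.9% of all genes and 19.5% of those averaging at least 20 CPM. The median log2 fold change, hippocampus minus frontal cortex, was -0.05 over the members, -0.17 over all genes and -0.07 over those averaging at least 20 CPM. Other marker sums moved with the region, as did the striatal and choroid plexus markers above. Inhibitory neuron markers summed to a median of 630 CPM in hippocampus (452 to 745) and 745 CPM in frontal cortex (642 to 832). All 6 were lower in hippocampus, 2 of them past an adjusted p of 0.05 by edgeR. Excitatory neuron markers summed to 660 CPM (441 to 927) and 511 CPM (382 to 769). Of these, 3 were higher in hippocampus and 1 lower, with 1 past adjustment. Endothelial markers summed to 147 and 199 CPM and blood markers to 663 and 879 CPM. All 5 and all 4 tested were lower in hippocampus, with 0 past adjustment. Cortical layer markers summed to a median of 389 CPM in hippocampus (217 to 570) and 496 CPM in frontal cortex (324 to 629), with 3 of 6 past the adjusted threshold of edgeR, 1 of them higher in hippocampus. Pan-neuronal markers summed to 5255 CPM (4660 to 5752) and 5532 CPM (5031 to 6103), lower in hippocampus for 5 of 6, with 1 past that threshold. Their part in the members' differences was not tested. No member had all 20 libraries of a region apart from the 20 of the other, which 0.0721% of all genes did.

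Homer proteins are adaptors that tie Shank to metabotropic glutamate receptors and to calcium stores, and their 2 better measured genes lay in opposite directions. Homer1 lies at chr13:93299635-93405129 on the plus strand and Homer2 at chr7:81600481-81707527 on the minus strand of GRCm38. Homer1 ran from 32.0 through a median of 121 to 263 CPM in hippocampus and from 116 through 170 to 284 in frontal cortex. Homer2 ran from 148 through 186 to 277 CPM in hippocampus and from 82.0 through 143 to 203 in frontal cortex. Homer1 was lower in hippocampus in 19 of 20 cohorts (log2 fold change -0.75, SE 0.13, edgeR adjusted p = 7.82e-07), and Homer2 was higher in 17 of 20 (0.48, SE 0.12, adjusted p = 0.00549). The exact sign-flip permutation tests over cohorts gave p = 0.000204 and p = 0.000305. Homer1 passed the adjusted threshold in pre-KD cohorts alone (-0.81, adjusted p = 0.000960) and in post-KD cohorts alone (-0.70, adjusted p = 0.0106), and over all alternatives its adjusted p ran from 3.05e-07 to 0.0106. For Homer2 it ran from 0.000230 to 0.291, and Homer2 passed in neither arm alone.

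The balance within the family was also described, because a share of counts is free of the scaling between libraries. Of the counts of Homer1, Homer2 and Homer3 together, Homer1 held a median of 38.0% in hippocampus, from 10.99% to 51.8%, and 56.3% in frontal cortex, from 48.7% to 67.4%. Homer2 held 60.3% in hippocampus, from 46.1% to 87.9%, and 41.1% in frontal cortex, from 32.6% to 51.3%. The Homer1 share was lower and the Homer2 share higher in the hippocampus of 19 of 20 cohorts, and the ranges of the regions overlapped narrowly. Homer3 held a median of only 2.96% in hippocampus and 0.741% in frontal cortex. The Homer1 and Homer2 shares were therefore near complements, and their directions are the same observation, not separate ones. A share of counts is not a share of molecules, since the genes differ in length. Homer3, with 483 counts over all 40 libraries, overlaps the exons of Ddx49 on the opposite strand, and whether counting used strand is not given in the sources used here.

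The promoters of these paralogs differ in their letters, and they are shown beside Nrgn for that reason. Each is a RefSeq window of mouse build GRCm38.p6 from 250 bases before to 50 bases after a transcription start. Capitals in Homer2 and Nrgn mark the GC box, GGGCGG or CCGCCC as its reverse complement, the core bound by Sp1. Capitals in Homer1 mark TGACG, the core of the cyclic AMP response element, searched with its reverse complement CGTCA.
Homer1, chr13:93303507-93303806, plus strand: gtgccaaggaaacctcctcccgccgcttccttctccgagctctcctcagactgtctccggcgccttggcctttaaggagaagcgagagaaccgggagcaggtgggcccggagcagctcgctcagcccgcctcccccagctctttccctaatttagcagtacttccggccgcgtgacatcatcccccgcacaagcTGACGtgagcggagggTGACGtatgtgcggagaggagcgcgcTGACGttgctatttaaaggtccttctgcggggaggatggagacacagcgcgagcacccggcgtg
Homer2, chr7:81706876-81707175, minus strand: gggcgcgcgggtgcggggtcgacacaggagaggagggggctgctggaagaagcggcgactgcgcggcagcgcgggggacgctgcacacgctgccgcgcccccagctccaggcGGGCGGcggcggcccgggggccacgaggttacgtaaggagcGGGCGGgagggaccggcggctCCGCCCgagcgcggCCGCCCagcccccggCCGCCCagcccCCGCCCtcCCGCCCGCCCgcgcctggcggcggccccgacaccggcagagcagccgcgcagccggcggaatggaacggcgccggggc
Nrgn, chr9:37552696-37552995, minus strand: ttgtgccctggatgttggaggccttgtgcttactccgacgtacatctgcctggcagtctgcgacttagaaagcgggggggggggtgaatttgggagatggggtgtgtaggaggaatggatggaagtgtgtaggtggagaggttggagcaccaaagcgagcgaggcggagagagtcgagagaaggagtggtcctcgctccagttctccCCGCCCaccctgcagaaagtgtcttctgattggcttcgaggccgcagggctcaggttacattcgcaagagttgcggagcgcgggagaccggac

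The Homer2 window held 8 GC boxes, the last of them overlapping, the Nrgn window 1 and the Homer1 window 0. The Homer1 window held 3 such cores and the other 2 windows 0. A GC box occurs in 35.7% of all 32851 RefSeq windows of this length and in 22 of the 45 windows of the 28 members that have any, and the TGACG core in 20.8% of all windows and in 8 of those 45. The start site of the Homer1 window lies 4122 bases from the gene start in GENCODE M21, and the window is 1 of 2 windows that RefSeq gives for the gene, as for Homer2. These matches describe letters and do not bear on binding.

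Nrgn encodes neurogranin, which holds calmodulin near the membrane until calcium rises, and Ddn encodes dendrin, a dendritic protein whose mRNA travels into dendrites. Nrgn ran from 4452 through 5789 to 8537 CPM in hippocampus and from 6049 through 8032 to 11890 in frontal cortex. Ddn ran from 309 through 465 to 793 CPM in hippocampus and from 242 through 299 to 402 in frontal cortex. The ranges overlapped, but within cohorts the direction was nearly uniform. Nrgn was lower in hippocampus in 19 of 20 cohorts (log2 fold change -0.44, SE 0.03, edgeR adjusted p = 2.33e-44) and Ddn higher in 18 of 20 (0.54, SE 0.09, adjusted p = 1.51e-07). The spread of the cohort differences was wider than the edgeR error for Nrgn: their mean on log2(CPM + 1) was -0.45 with an SE of 0.08, and the exact sign-flip permutation test gave p = 3.82e-06. For Ddn that test gave p = 7.63e-06. The Ddn difference was 0.68 in pre-KD cohorts (adjusted p = 2.80e-05) and 0.39 in post-KD cohorts (adjusted p = 0.0684), and over all alternatives its adjusted p ran from 5.42e-11 to 0.0684. Ddn shares exon positions with B130046B21Rik, which had 120 counts in all.

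**Figure D3:**
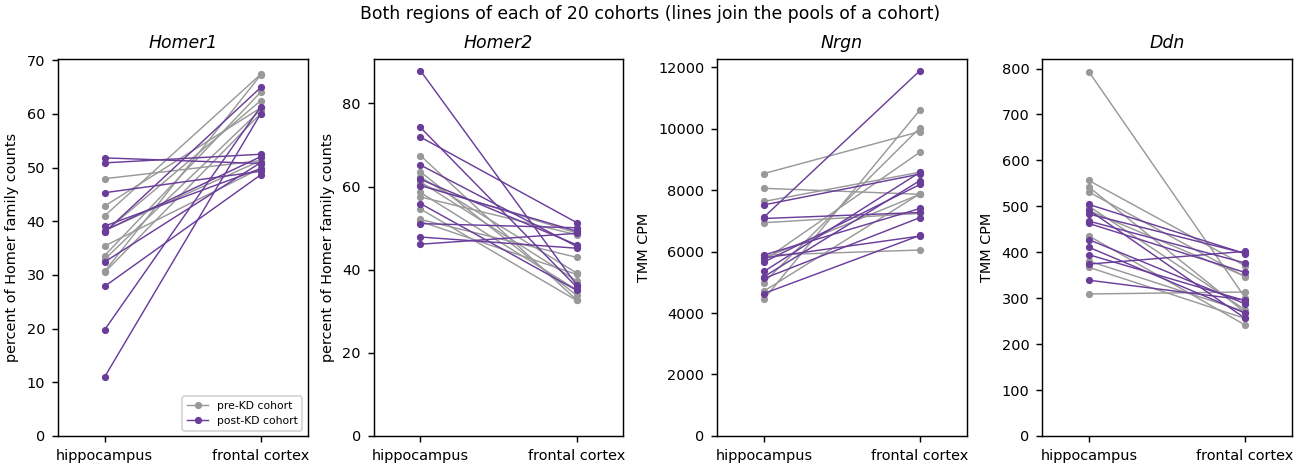
Hippocampus and frontal cortex of each of 20 cohorts joined by a line, with pre-KD cohorts in grey and post-KD cohorts in purple. The y axes start at 0 and give the percent of Homer family counts for Homer1 and Homer2 and TMM-scaled CPM for Nrgn and Ddn. The Homer1 share is lower and the Homer2 share, its near complement, higher in hippocampus in 19 of 20 cohorts, Nrgn lower in 19 and Ddn higher in 18.

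Neurexins are the presynaptic side of the bridge, and Nrxn3 ran from 384 through 478 to 578 CPM in hippocampus and from 491 through 625 to 698 in frontal cortex. It was lower in hippocampus in 19 of 20 cohorts (log2 fold change -0.37, SE 0.08, edgeR adjusted p = 0.000168), while Nrxn2 had a log2 fold change of -0.01 (SE 0.07). In pre-KD cohorts alone Nrxn3 did not pass (-0.32, adjusted p = 0.238 by edgeR), and over all alternatives its adjusted p ran from 1.66e-06 to 0.238. Nrxn2 made up a median of 65.0% of the counts of both in hippocampus and 59.6% in frontal cortex, higher in hippocampus in 18 of 20 cohorts. The neuroligins, their dendritic partners, gave no call. Nlgn1 had -0.05 (SE 0.14), Nlgn2, which is placed at inhibitory synapses, -0.34 (SE 0.17, adjusted p = 0.418) and Nlgn3 0.22 (SE 0.18), all as log2 fold changes by edgeR.

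The SAPAP scaffolds, which sit between PSD-95 and Shank, again split in sign. Dlgap1 ran from 869 through 1056 to 1350 CPM in hippocampus and from 692 through 876 to 1161 in frontal cortex, higher in hippocampus in 18 of 20 cohorts (log2 fold change 0.23, SE 0.06, edgeR adjusted p = 0.0137). Dlgap3 ran from 68.7 through 97.2 to 158 CPM and from 90.1 through 148 to 214, lower in hippocampus in 17 of 20 (-0.49, SE 0.14, adjusted p = 0.0161). The groups overlapped for both. Without cohorts 5, 6 and 7 of the pre-KD arm, Dlgap3 was at -0.43 (adjusted p = 0.0753 by edgeR), and Dlgap1 kept its call (0.23, adjusted p = 0.0276). Over all alternatives the adjusted p ran from 5.37e-05 to 0.7002 for Dlgap1 and from 0.00174 to 0.482 for Dlgap3, the highest in each case with pre-KD cohorts alone. Dlgap2 and Dlgap4 were at -0.14 (SE 0.14) and -0.22 (SE 0.09, adjusted p = 0.297).

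Of the TARP genes, Cacng3 and Cacng2 were lower in hippocampus over all 20 cohorts, and Cacng8 had too few counts to compare. Cacng3 ran from 3.82 through 41.7 to 96.1 CPM in hippocampus and from 30.2 through 65.7 to 156 in frontal cortex. It was lower in 15 of 20 cohorts (log2 fold change -0.84, SE 0.22, edgeR adjusted p = 0.00819, and exact sign-flip permutation p = 0.00558). Its value was -1.33 in pre-KD cohorts (SE 0.31, adjusted p = 0.00323) and -0.35 in post-KD cohorts (SE 0.29, adjusted p = 0.868), the split that the interaction above tests. Cacng2 ran from 66.0 through 129 to 221 CPM and from 114 through 165 to 240, lower in hippocampus in 15 of 20 cohorts (-0.42, SE 0.13, adjusted p = 0.0454). It lost the adjusted threshold under RLE scaling (p = 0.0845 adjusted), with no filter on low counts (0.0614), and without the pre-KD cohorts 5, 6 and 7 (0.155) or pre-KD cohort 1 (0.0833), all by edgeR, and over all alternatives the adjusted p ran from 0.0381 to 0.586. Cacng2 shares exon positions with the antisense gene A730060N03Rik, which had 333 counts in all. Cacng8, encoding gamma-8, had 201 counts in all and no count in 19 of 40 libraries, and no difference between regions passed the test (log2 fold change -0.70, SE 1.18). Its coefficient of variation over hippocampal libraries was 163%, where counting error alone would give 45.9%.

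Lgi1 was the remaining call. It ran from 95.0 through 179 to 263 CPM in hippocampus and from 76.1 through 132 to 233 in frontal cortex, higher in hippocampus in 17 of 20 cohorts. The log2 fold change was 0.45 (SE 0.12, edgeR adjusted p = 0.0170, exact sign-flip permutation p = 0.00123). It did not pass in pre-KD cohorts alone (0.55, adjusted p = 0.129) or in post-KD cohorts alone (0.34, adjusted p = 0.615), both by edgeR, and over all alternatives the adjusted p ran from 0.000941 to 0.615. No PSD-95 relative, Shank, CaMKII subunit or calcineurin subunit passed the adjusted threshold between regions with edgeR over all 20 cohorts. Dlg1 came nearest at -0.44 (SE 0.15, adjusted p = 0.0902), lower in hippocampus in 15 of 20 cohorts, and it passed with DESeq2 and, by edgeR, in post-KD cohorts alone. Camk2a and Camk2b were at 0.02 (SE 0.04) and -0.01 (SE 0.08), and Ppp3ca at 0.07 (SE 0.04). Camk2g was lower in hippocampus in 16 of 20 cohorts without passing adjustment (-0.38, SE 0.18, adjusted p = 0.404), and Camk2d was at -0.08 (SE 0.15).

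The other adaptors of the density gave no call between regions. Lrrc7, encoding densin-180, was at 0.04 (SE 0.17), Cnksr2, a Ras pathway scaffold, at 0.14 (SE 0.08) and Baiap2, encoding the actin regulator IRSp53, at -0.18 (SE 0.10). Iqsec1 was at -0.36 (SE 0.12, edgeR adjusted p = 0.103) and Iqsec2 at 0.09 (SE 0.16). Ppp1r9b, encoding spinophilin, which places protein phosphatase 1 in spines, was at 0.02 (SE 0.10). Among the scaffolds, Dlg2, Dlg3 and Dlg4 were at -0.18, 0.03 and -0.13 (SE 0.11, 0.16 and 0.08).

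**Figure D4:**
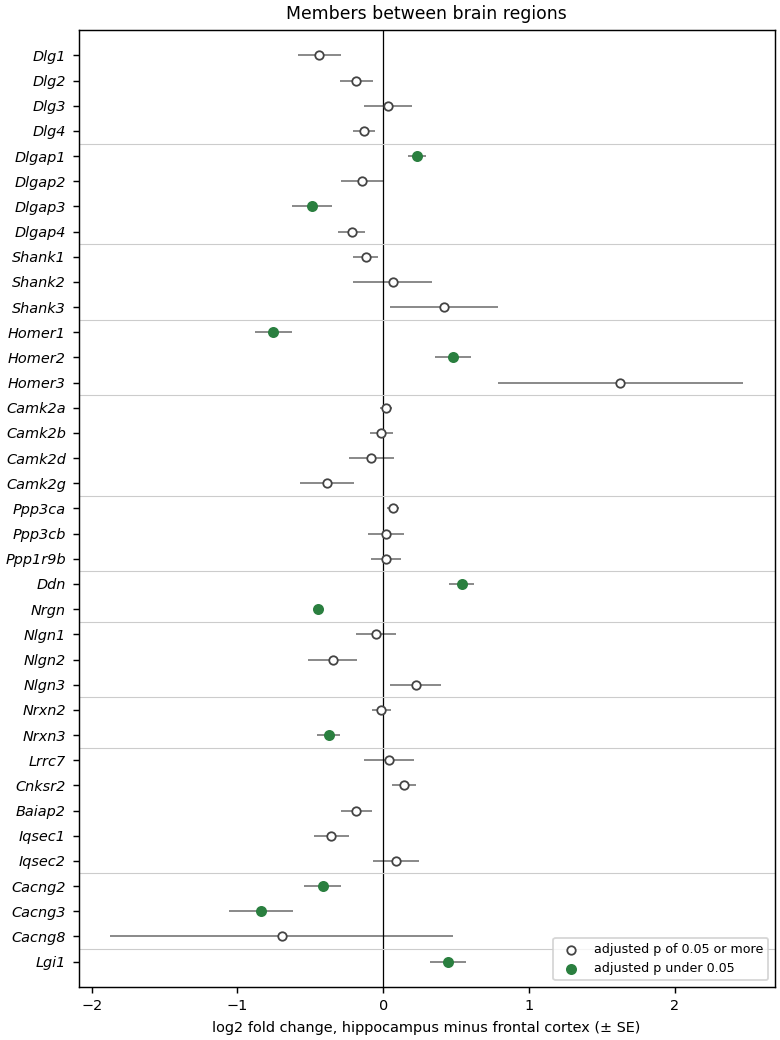
Log2 fold change between regions (x axis, hippocampus minus frontal cortex, bars ± SE from edgeR with the cohort as a block) of each of the 37 members (y axis, grouped by role). Filled points mark an adjusted p under 0.05: 4 lie above 0 and 6 below it.

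The members differed widely in how tightly their libraries agreed. Within a group of 10 libraries, the coefficient of variation ran from 5.94% for hippocampal pre-KD Baiap2 to 168% for hippocampal pre-KD Cacng8. Its median over the members was 27.2% and 25.9% in pre-KD and post-KD hippocampus and 22.7% and 19.6% in frontal cortex. Counting error alone would give medians of 6.28%, 7.08%, 6.25% and 6.12%, so the libraries spread 4.71, 4.19, 3.82 and 3.53 times as widely as counting predicts, by the median member. Ppp3ca varied least in frontal cortex, by 5.99% before and 6.60% after. The edgeR error of a member's diet log2 fold change ran from 0.08 for Nrgn and Ppp3ca to 1.34 for Cacng8 in hippocampus, with a median of 0.20 there and 0.14 in frontal cortex.

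**Figure D5:**
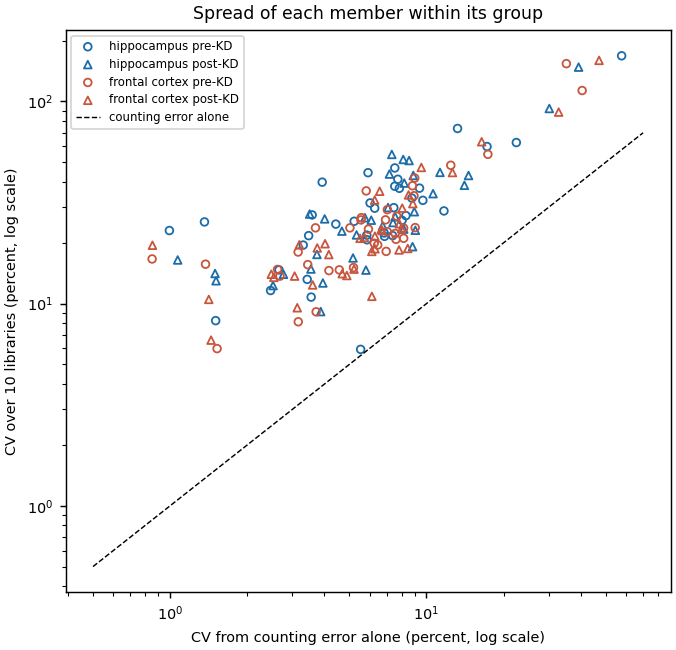
Coefficient of variation over 10 libraries (y axis, percent, log scale) against the value that counting error alone would give (x axis, percent, log scale) for each member in each of the 4 groups. The dashed line marks equality, and the points lie above it, for example at 1.07 to 23.1 times in pre-KD hippocampus.

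A list of 61 other synaptic scaffold and adhesion genes, none of them a member, served to place these values. All 61 were tested. By diet, 1 of 61 passed an unadjusted p of 0.05 in hippocampus and 2 of 61 in frontal cortex, and 0 passed an adjusted p of 0.05 in either (edgeR). Of all genes, 10.1% and 9.68% passed the unadjusted threshold, and of those averaging at least 20 CPM 2.83% and 5.27%. The shares of this list were not above these. In hippocampus the gene was Pick1, encoding an AMPA receptor binding protein, with medians of 18.8 CPM before and 45.9 CPM after, higher for 9 of 10 donors (log2 fold change 0.88, SE 0.42, p = 0.0378 by edgeR). In frontal cortex, Calm3, a calmodulin gene, had medians of 717 and 614 CPM and was lower for 10 of 10 donors (log2 fold change -0.22, SE 0.09, edgeR p = 0.0171, adjusted p = 0.272). Epb41l1, encoding the cytoskeletal protein 4.1N, had medians of 730 and 686 CPM there (-0.27, SE 0.11, edgeR p = 0.0186, adjusted p = 0.288).

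Between regions, 11 of the 61 passed an adjusted p of 0.05, 3 higher in hippocampus and 8 lower, beside the 4 and 6 of the 37 members. Of all genes tested 2.85% passed, and of those averaging at least 20 CPM 6.87%. Among these 11, the largest differences toward hippocampus were those of Tanc1, a scaffold that binds PSD-95 (log2 fold change 1.73, SE 0.22, 20 of 20 cohorts), Lrrtm1, a postsynaptic neurexin ligand (0.91, SE 0.27, 18 of 20), and Cnih2, an AMPA receptor auxiliary protein (0.47, SE 0.11, 19 of 20). Toward frontal cortex they were those of Grip2, an AMPA receptor scaffold (-2.93, SE 0.76, 14 of 20), Cbln2, a secreted neurexin ligand (-1.75, SE 0.30, 16 of 20), and Cacng4, another TARP (-1.13, SE 0.30, 17 of 20). Grip2 had no count in 9 of 20 hippocampal libraries, with medians of 1.41 CPM there and 13.3 CPM in frontal cortex, so its fitted value rests on few counts. Tanc1 had a median of 85.5 CPM in hippocampus, from 38.8 to 190, and of 25.2 CPM in frontal cortex, from 5.62 to 66.7. Edges of the 2 ranges overlapped. Across the list the median log2 fold change was -0.10, against -0.05 over the members.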

How the data were processed

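Count tables deposited for hippocampus and frontal cortex held whole-number counts per gene, which, per the study's methods and processing notes, the authors made by aligning 69 bp paired reads to mm10 with STAR 2.5.2a and counting with HTSeq 0.6.0. The methods name a whole-transcript library kit, while the resource list names a kit that reads transcript ends and the aligner HISAT2, so levels were not compared between genes per length. The annotation release and strand setting are not given in the sources used here. Counts were placed on GENCODE M21, where 47224 of 47643 rows matched. Members, gene lists and tests were chosen with earlier results of these data known.

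Genes whose counts summed to 10 or more were tested by edgeR 4.0.16 in R 4.3.3 (TMM, quasi-likelihood test, Benjamini-Hochberg), and DESeq2 1.42.0 was an alternative. The diet was fitted within each region over 20 libraries, and the regions over 40 libraries with the cohort as a block. Single members were also tested on log2(CPM + 1), pseudocount 1, by exact permutation. This was done only for members picked by edgeR in the same data. By diet these were the 6 with the smallest p per region, and between regions those past the adjusted threshold. The permutation tests therefore have no adjusted p and no share over all genes. Values print as a level (CPM) or as a log2 fold change, post-KD minus pre-KD or hippocampus minus frontal cortex. All members are named by role. Full values are given for the 6 smallest p per region or all under 0.05, for up to 6 members in each direction between regions, for interaction terms under 0.05, and of the other list for those under 0.05 by diet and the 3 largest differences in each direction between regions. A few other values were added for completeness of a family.

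The donor pairs the pre-KD and post-KD cohorts by design. Correlations of paired libraries' deviations from group means ran from -0.0485 to 0.0309 in hippocampus and from -0.0659 to 0.0566 in frontal cortex, and 0 of 10 pairs were over 0.1 in either. Between the regions of a cohort they ran from -0.0271 to 0.255, with 1 of 20 over 0.1. No pair of libraries of a group was identical. Total counts of 1140756 to 2095352 give the counting error stated in the report. The p-values by diet within a region rest on the spread between cohorts. Those of the region and interaction fits, with the cohort as a block, rest on the spread of region differences within cohorts.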

Additional observations from a re-analysis of the deposited data

Results flagged for a closer look

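In 13 of 148 checks of a member within a group of 10 libraries, a single library lay far from the other 9 by Dixon's test, where chance flags about 1 in 20. Of these, 5 were in pre-KD hippocampus, 3 in post-KD hippocampus, 4 in pre-KD and 1 in post-KD frontal cortex. The pre-KD hippocampal library of donor 5, one of those that stood apart across genes, accounted for 3, with low values of Dlg3 (8.002 CPM against a group median of 103), Camk2d (10.2 against 120) and Camk2b (340 against 554). In the same group, Homer2 was high in donor 7 (277 against 174 CPM) and Ppp3ca low in donor 2 (2305 against 2726 CPM). In post-KD hippocampus, Dlg2 was high in donor 7 (342 against 185 CPM), Dlgap2 low in donor 5 (50.02 against 130 CPM) and Cacng3 low in donor 2 (10.7 against 54.2 CPM). In pre-KD frontal cortex, Nlgn2 was high (151 against 96.1 CPM) and Lrrc7 low (7.81 against 86.6 CPM) in donor 1, and Iqsec2 was low (46.0 against 107 CPM) and Cacng3 high (156 against 69.5 CPM) in donor 10. In post-KD frontal cortex, Nrgn was high in donor 5 (11890 against 7792 CPM).

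Cacng3, the TARP gamma-3 gene, was singled out because the test of a difference between its diet changes in the regions gave an unadjusted p under 0.05. The interaction was 0.98 on the log2 scale (SE 0.44, edgeR p = 0.0258), in 1 member of 37 against 2.22% of all genes, and it did not pass adjustment (adjusted p = 1). Without the cohort block edgeR gave p = 0.0816. The donor 10 and donor 2 libraries just named enter this value.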

How the results depend on the processing

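No alternative turned the direction of a member named with full values, over 102 values by diet in hippocampus, 108 in frontal cortex, 90 between regions and 7 of the interaction. Members under an unadjusted p of 0.05 in hippocampus numbered 0, but 1 with DESeq2, 2 with a replicate block for the donor in DESeq2, 0 with that block in edgeR, 0 to 1 when leaving out a donor, and 3 (Camk2a, Nrgn and Cacng3) without the pre-KD libraries of donors 5 and 7, a setting chosen after seeing the data. Of all genes, 3.42%, 5.31%, 1.99%, 9.44% to 10.2% and 9.53% passed under these settings, in that order. In frontal cortex such members numbered 2, still 2 with the donor block in both tools, 0 to 3 when leaving out a donor (0 without donor 8), 1 without the pre-KD library of donor 6 and 2 without that of donor 1, both also chosen after seeing the data. Of all genes, 3.07% (edgeR) and 6.13% (DESeq2), 8.92% to 9.74%, 9.29% and 9.56% passed under these settings, in that order. None of these gave a member under an adjusted p of 0.05. Between regions 10 members passed. In pre-KD cohorts alone 4 passed (Homer1, Nrgn, Ddn and Cacng3), against 1.09% of all genes. In post-KD cohorts alone 4 passed (Homer1, Nrgn, Nrxn3 and Dlg1, which is not one of the 10), against 1.41% of all genes. Under the other alternatives 8 to 11 passed, with 10 without the cohort block, and 10 without pre-KD cohort 1, where Iqsec1 stood in place of Cacng2. Of all genes, 2.22% to 9.96% passed under those alternatives, the most without the cohort block. The interaction count of 1 went to 0 without the cohort block, to 3 (Homer3, Nrgn and Cacng3) without the pre-KD cohorts 5, 6 and 7, and to 2 (Shank1 and Cacng3) without pre-KD cohort 1. Of all genes, 9.1%, 3.09% and 2.15% passed under these settings, in that order. For the settings with fewer cohorts the number of libraries also fell, and otherwise the cause was not tested. Over all genes in hippocampus, 1762 passed the unadjusted threshold, but 599 with DESeq2, 221 with filterByExpr, which kept 36 members, and 2931 with no filter, which also put 1291 genes and 0 members under an adjusted p of 0.05. In frontal cortex 1731 passed, but 825 with DESeq2, 407 with filterByExpr, which kept 35 members, and 3035 with no filter. Between regions 554 passed the adjusted threshold, but 1033 with DESeq2 and 1935 without the cohort block, and the interaction gave 431 unadjusted, but 949 with DESeq2 and 1767 without the block. The donor block put 348 (edgeR) and 931 (DESeq2) genes under the unadjusted threshold in hippocampus and 548 and 1096 in frontal cortex. RLE scaling moved the median of all genes between regions from -0.17 to -0.14, and leaving out the cohort block from -0.17 to -0.02. Homer3 and Cacng8 had few counts and a spread between libraries wider than counting error, so their values are imprecise.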
